A study of Mus musculus with 8 samples.

Results

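Expression of 4 matrix metalloproteinases (Mmp9, Mmp12, Mmp14 and Mmp19), the related protease gene Adam8 and 2 tissue inhibitors of metalloproteinases (Timp1 and Timp2) was followed through the cell types of the mouse brain after stroke. These 7 genes were chosen by name from the 20340 genes counted, with earlier results of these data known. How many of them were called in a test is therefore a description. All 7 had counts, and each was read in cell classes defined by marker genes that include none of them. The tissue came from male C57BL/6J mice aged 8-9 weeks whose middle cerebral artery had been occluded for 60 min with a suture inside the vessel (transient middle cerebral artery occlusion), followed by reperfusion. The baseline is the contralateral hemisphere of operated brains, and no sham brain is among these libraries. The 8 single-cell RNA-seq libraries were the ipsilateral (occluded side) and contralateral hemispheres of mice labelled Prdx1-/- or WT (Prdx1+/+), taken 48 h or 24 h after the occlusion, with 1 library for each combination. Prdx1 encodes peroxiredoxin 1, a peroxide-removing enzyme, and the study examined its effects in this stroke model. The allele is named only as Prdx1-/- and the number of animals per library is not given in the labels, so every p-value measures the spread between libraries, which may be technical.

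Matrix metalloproteinases are zinc-dependent endopeptidases that cut collagens, elastin, laminins and other proteins of the extracellular matrix and the cell surface. Most are secreted as inactive proenzymes, and MMP14 is anchored in the membrane, where it can activate proMMP2 with TIMP2 as an adaptor. TIMPs block the catalytic site of the active enzymes. ADAM8 is a membrane protease of leukocytes that sheds surface proteins, and MMP9 stored in neutrophil granules is known for its part in opening the blood-brain barrier after stroke.

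The libraries held 39433266 to 70111421 UMIs (unique molecular identifiers, 1 per captured transcript). Brain tissue had been digested enzymatically, a Percoll step had removed myelin, and live cells had been sorted, and most cells recovered were immune cells. After filters, 38025 of 39945 deposited cells were used, and the gate placed 20594 in microglia, 7226 in monocytes and macrophages, 5740 in neutrophils, 775 in T and NK cells and 754 in B cells. A further 2460 cells met no gate, and 203 of 39742 barcodes occurred in more than 1 library, with at most 17 shared by any pair. Microglia made up 10.3% to 54.0% of the cells of an ipsilateral library and 70.9% to 92.4% of a contralateral one. Leading markers of the 3 large classes gave median scores of 0.720 for microglia, 0.553 for monocytes and macrophages and 0.510 for neutrophils, where a score is the mean of a cell's marker levels, each scaled to a high percentile of that marker and capped at 1. Levels are given as CPM (counts scaled to a common total of UMIs) of the summed cells of a class in a library. The counts are of 3' ends and are not divided by transcript length.

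The genes lie on 7 chromosomes (GRCm38, GENCODE vM21). Mmp9 lies at chr2:164940780-164955850 on the plus strand with no overlapping gene. Mmp12 lies at chr9:7344381-7369499 (plus), with 9 other MMP genes within 1 Mb, and shares exon sequence with Mmp1b on the other strand. Mmp14 lies at chr14:54431612-54445364 (plus) with no overlapping gene. Mmp19 lies at chr10:128790910-128800824 (plus) and overlaps exons of Gm47093 and Tmem198b on the minus strand. Adam8 lies at chr7:139978932-139992562 (minus) and overlaps exons of Gm16201 on the plus strand. Timp1 lies at chrX:20870166-20874735 (plus) within Syn1, and Timp2 at chr11:118301069-118355740 (minus) beside the overlapping Cep295nl, both without shared exons. How the counting treated strand is not given in the sources used here, so reads of overlapping exons cannot be told apart for Mmp12, Mmp19 and Adam8.

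Promoter windows are shown for Mmp12, Mmp14 and Adam8 because their microglial levels differed between the hemispheres. Windows of 250 bases before the start site were taken from RefSeq (GRCm38.p6), which gave 6 windows for 5 of the 7 genes. Motifs of 2 factor families known to act on MMP genes were searched on both strands, AP-1 (TGANTCA) and ETS (GGAAGT, which reads ACTTCC on the other strand). Capitals mark the matches, and each window is written 5' to 3' on the strand of its gene.
Mmp12, start site 1, chr9:7344147-7344396 (plus): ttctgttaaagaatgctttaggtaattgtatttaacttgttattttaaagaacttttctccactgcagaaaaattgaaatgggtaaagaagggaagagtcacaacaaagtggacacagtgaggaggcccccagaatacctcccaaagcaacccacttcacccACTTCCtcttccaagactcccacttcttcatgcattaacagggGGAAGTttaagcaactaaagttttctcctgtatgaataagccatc
Mmp12, start site 2, chr9:7347124-7347373 (plus): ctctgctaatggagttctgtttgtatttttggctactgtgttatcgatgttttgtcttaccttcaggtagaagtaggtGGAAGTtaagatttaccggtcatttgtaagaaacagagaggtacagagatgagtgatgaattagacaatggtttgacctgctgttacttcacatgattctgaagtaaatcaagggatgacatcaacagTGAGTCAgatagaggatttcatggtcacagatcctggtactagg
Mmp14, chr14:54431348-54431597 (plus): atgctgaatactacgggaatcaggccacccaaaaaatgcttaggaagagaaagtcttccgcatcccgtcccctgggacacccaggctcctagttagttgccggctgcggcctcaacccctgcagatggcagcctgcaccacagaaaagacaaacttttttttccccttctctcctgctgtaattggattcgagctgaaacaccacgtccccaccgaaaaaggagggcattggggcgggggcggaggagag
Adam8, chr7:139992563-139992812 (minus): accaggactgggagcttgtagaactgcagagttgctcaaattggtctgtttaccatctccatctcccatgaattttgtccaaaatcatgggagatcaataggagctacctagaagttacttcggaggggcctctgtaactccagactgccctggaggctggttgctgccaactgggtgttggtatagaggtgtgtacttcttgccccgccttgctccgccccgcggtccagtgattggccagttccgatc
The first Mmp12 window held 2 ETS matches, 88 and 45 bases before the start, and the second held 1 AP-1 match 44 bases and 1 ETS match 172 bases before the start. The windows of Mmp14, Adam8 and Timp2 held no match, and the Timp1 window held 1 ETS match 174 bases before the start. An AP-1 match occurred in 1 of the 6 windows and in 6.75% of 32851 promoter windows of the same length, and an ETS match in 3 of the 6 and in 19.7% of all. A match describes letters and not a bound site.

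Mmp9, the gelatinase of neutrophil granules, was a neutrophil transcript. It averaged 1466 ± 295 CPM in neutrophils, against 14.8 ± 8.18 CPM in monocytes and macrophages and 1.91 ± 1.88 CPM in microglia (SD, n = 8 libraries each). After each cell was thinned to 2000 UMIs, 79.9% to 97.6% of neutrophils in a library had an Mmp9 UMI (88.9% to 97.7% before thinning). Neutrophils held 90.3% of all Mmp9 UMIs of an ipsilateral library (range 88.4% to 93.6%), against 89.2% of a contralateral one (84.9% to 94.2%). Microglia were below neutrophils, at -11.31 (log2 fold change, SE 0.63, adjusted p = 4.7e-16, edgeR quasi-likelihood test with library as a block), and so were monocytes and macrophages, at -7.59 (SE 0.54, adjusted p = 2.8e-13, same test). Over all 7 genes, 5 differed between microglia and neutrophils, where 80.8% of 10590 tested genes did, and 5 between monocytes and macrophages and neutrophils, where 74.1% did. Microglia and monocytes and macrophages differed in all 7, where 69.3% of genes did.

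Mmp12, the macrophage elastase, was read mainly in ipsilateral microglia and in ungated cells. It averaged 80.3 ± 65.5 CPM in ipsilateral and 2.98 ± 1.27 CPM in contralateral microglia (SD, n = 4 each), and 3.65 ± 1.71 CPM in ipsilateral and 3.41 ± 2.28 CPM in contralateral monocytes and macrophages. Of all Mmp12 UMIs in an ipsilateral library, microglia held 48.4% on average (35.6% to 59.3%) and ungated cells 38.7% (27.9% to 47.9%). Across the 8 libraries Mmp12 was higher in microglia than in monocytes and macrophages (log2 fold change 1.93, SE 0.57, adjusted p = 0.0039, edgeR) and than in neutrophils (3.09, SE 0.65, adjusted p = 8.9e-05, edgeR).

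Among the 3 myeloid classes Mmp14 was highest in monocytes and macrophages, and Mmp19 was shared by them and neutrophils. Mmp14, the membrane-anchored collagenase, averaged 65.6 ± 18.7 CPM in monocytes and macrophages, 30.5 ± 9.61 CPM in microglia and 1.60 ± 1.4 CPM in neutrophils (SD, n = 8). It was higher in monocytes and macrophages than in neutrophils (log2 fold change 5.19, SE 0.28, adjusted p = 5.8e-18, edgeR), and lower in microglia than in monocytes and macrophages (-1.58, SE 0.18, adjusted p = 6.4e-10). Mmp19, a secreted protease that cuts basement membrane proteins, averaged 110.4 ± 58.5 CPM in monocytes and macrophages, 85.7 ± 68.7 CPM in neutrophils and 5.36 ± 4.03 CPM in microglia. Its levels in monocytes and macrophages and in neutrophils did not differ beyond their spread (-0.04, SE 0.25, adjusted p = 0.902), and microglia were below both (-5.08 and -5.12, SE 0.27 and 0.28).

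Adam8 was shared by neutrophils, monocytes and macrophages and, on the ipsilateral side, microglia. It averaged 367 ± 102 CPM in neutrophils, 257 ± 98.7 CPM in monocytes and macrophages and 87.8 ± 102 CPM in microglia (SD, n = 8), against 11.3 ± 6.94 CPM in T and NK cells. The microglial mean pools ipsilateral libraries at 84.6 to 301 CPM and contralateral ones at 7.45 to 23.9 CPM. Monocytes and macrophages were below neutrophils (log2 fold change -1.34, SE 0.40, adjusted p = 0.0036, edgeR) and microglia below monocytes and macrophages (-2.64, SE 0.42, adjusted p = 2.3e-06). As in all class comparisons here, the fit follows TMM scaling of the sums, so its fold changes can depart from ratios of the unscaled CPM means.

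The 2 inhibitors occupied opposite classes. Timp1, the inducible inhibitor, averaged 87.7 ± 33.4 CPM in monocytes and macrophages, against 1.32 ± 1.48 CPM in microglia and 1.06 ± 1.60 CPM in neutrophils, and monocytes and macrophages held 89.3% of its ipsilateral UMIs (85.7% to 94.0%) and 77.6% of its contralateral ones (66.8% to 87.4%). Timp2, which is expressed constitutively in many tissues, averaged 388 ± 40.7 CPM in microglia, 181 ± 42.3 CPM in neutrophils, 45.6 ± 16.9 CPM in monocytes and macrophages and 37.0 ± 12.9 CPM in T and NK cells. Microglia were below monocytes and macrophages in Timp1 (log2 fold change -7.11, SE 0.44, adjusted p = 5.1e-15, edgeR) and above them in Timp2 (2.61, SE 0.21, adjusted p = 4.4e-13). Between microglia and neutrophils the fitted Timp2 difference was -0.11 (SE 0.20, adjusted p = 0.615), after the TMM scaling of the sums, while the unscaled CPM means differed as given. In whole libraries the cell mixture shows beside these levels. Mmp9 averaged 180 CPM of an ipsilateral library (118 to 269) and 42.1 CPM of a contralateral one (13.9 to 74.3), with neutrophils at 18.6% to 38.1% and 0.863% to 7.19% of the cells. Microglia held 60.3% of the Timp2 UMIs of an ipsilateral library (43.9% to 78.6%), against 92.6% of a contralateral one (86.8% to 96.5%).

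**Figure D1:**
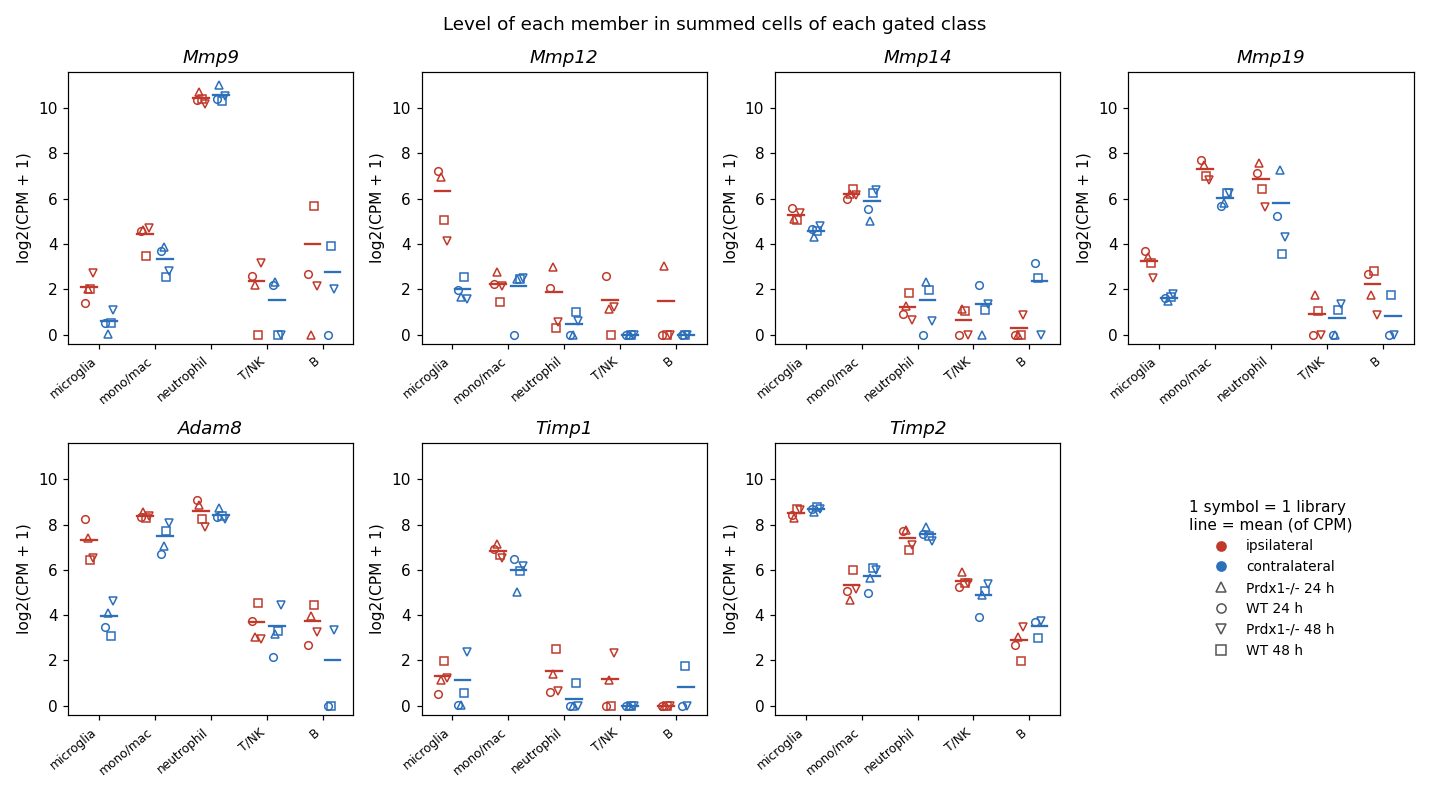
Level of each gene in the summed cells of 5 gated classes, as log2(CPM + 1). Each symbol is 1 library (shape by genotype label and time, red for ipsilateral, blue for contralateral) and each line the mean of the libraries shown. Mmp9 stands highest in neutrophils, Timp1 in monocytes and macrophages, Timp2 in microglia, and the hemispheres separate most for Mmp12 and Adam8 in microglia.

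Smaller classes were read only as pooled cells, with exact Poisson intervals that cover counting error only. Endothelial cells (58) had 130.4 CPM of Mmp9 (95% interval 102.2 to 164), found in 14 cells with at most 20 UMIs in any of them. Mural cells (30) had 128.9 CPM of Mmp9 (85.0 to 188), and oligodendrocyte-lineage cells (56) had 41.0 CPM. Median neutrophil scores were 0.0663 in endothelial and 0.0238 in mural cells, against 0.00872 in microglia. The part of neutrophil RNA in these Mmp9 levels was not tested. Mural cells also had 100.3 CPM of Mmp14 (62.1 to 153) and no Mmp12 UMI, which allows up to 17.6 CPM. Border macrophages (131) had 374 CPM of Timp2 (341 to 409), beside the microglial mean of 388 CPM. In B cells no gene of the 7 passed the filter on low counts. T and NK cells had 4 Mmp12, 5 Mmp14, 5 Mmp19 and 4 Timp1 UMIs in all 8 libraries together, and only Adam8 and Timp2 could be tested there.

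In microglia, 5 of the 7 genes rose in the ipsilateral over the contralateral hemisphere: Mmp12, Mmp14, Mmp19, Adam8 and Mmp9. Mmp9 was at trace levels, and whether these are expression by microglia was not tested. The edgeR fit called 44.7% of 13470 genes between the hemispheres in this class, so a call is common, DESeq2 called 6 of the 7 and 28.7% of genes, and the median fold change of all genes was -0.01. Mmp12 had 16.6 and 32.5 CPM in ipsilateral microglia at 48 h (Prdx1-/- and WT) and 123 and 149 CPM at 24 h, against 2.01 and 4.78 CPM and 2.16 and 2.97 CPM in the matching contralateral libraries. Every ipsilateral library was above every contralateral one, and the 24 h libraries were the highest. The log2 fold change was 4.57 (SE 0.79, adjusted p = 0.0119, edgeR), the largest of the 7.

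Adam8 rose too (log2 fold change 3.51, SE 0.64, adjusted p = 0.0139, edgeR). Its ipsilateral levels were 92.2 and 84.6 CPM at 48 h (Prdx1-/- and WT) and 167 and 301 CPM at 24 h, against 23.9 and 7.45 CPM and 16.3 and 10.2 CPM contralaterally. The hemispheres did not overlap. The share of all genes whose hemispheres did not overlap in microglia is not given here. Such separation, for Adam8 as for Mmp12, Mmp14 and Mmp19, therefore cannot be set against all genes. An Adam8 UMI was found in 9.27% to 24.1% of ipsilateral microglia at 2000 UMIs per cell, against 0.785% to 3.25% of contralateral microglia (25.0% to 40.7% and 2.74% to 9.09% without thinning). Thinning left out 16 ipsilateral and 65 contralateral microglia that were too shallow. In T and NK cells, which have little Adam8, the thinned share was at most 6.00% in ipsilateral and 2.44% in contralateral libraries, where the median cell held 5822 UMIs (8210.5 in microglia).

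Mmp14 rose by a smaller amount. It had 40.9 and 31.9 CPM in ipsilateral microglia at 48 h (Prdx1-/- and WT) and 33.1 and 46.8 CPM at 24 h, against 26.5 and 22.5 CPM and 18.6 and 24.0 CPM contralaterally. The log2 fold change was 0.85 (SE 0.14, adjusted p = 0.0017, edgeR) with no overlap between the hemispheres. Mmp19 averaged 8.61 ± 3.10 CPM in ipsilateral and 2.10 ± 0.26 CPM in contralateral microglia (SD, n = 4), also without overlap (2.13, SE 0.24, adjusted p = 0.00024, edgeR).

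Mmp9 also passed in microglia, at 3.32 ± 1.66 CPM ipsilaterally and 0.498 ± 0.442 CPM contralaterally (log2 fold change 2.95, SE 0.55, adjusted p = 0.0043, edgeR), from 199 UMIs in 167 of 5832 ipsilateral cells and 58 UMIs in 58 of 14762 contralateral cells. The thinned share of ipsilateral microglia with an Mmp9 UMI, 0.524% to 1.20%, lay within the 0% to 2.48% of ipsilateral T and NK cells. Those T and NK cells held 11 Mmp9 UMIs in all before thinning. So few counts cannot decide whether microglia express Mmp9, and no conclusion is drawn. Before thinning the shares were 2.01% to 5.79% in ipsilateral microglia and 0% to 3.31% in ipsilateral T and NK cells. Neutrophil markers moved with it: the 15 markers summed to 219 to 1097 CPM in ipsilateral and 28.1 to 258 CPM in contralateral microglia, with none at 0. Per 1000 UMIs of the neutrophil gene S100a9 there were 15.7 Mmp9 UMIs in ipsilateral microglia, 14.5 in T and NK cells and 10.9 in neutrophils. The part of neutrophil RNA in the microglial Mmp9 difference was not tested.

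Neither inhibitor passed. Timp2 had 394 and 417 CPM in ipsilateral microglia at 48 h (Prdx1-/- and WT) and 316 and 343 CPM at 24 h, against 407 and 435 CPM and 378 and 417 CPM contralaterally. It was lower in the ipsilateral library of all 4 pairs, and the fitted log2 fold change was -0.07 (SE 0.08, adjusted p = 0.498, edgeR). Timp1 had 1.34 and 2.88 CPM at 48 h and 1.18 and 0.447 CPM at 24 h ipsilaterally, against 4.16 and 0.468 CPM and 0.0251 and 0.0312 CPM contralaterally. Its fold change was 1.64 (SE 1.01, adjusted p = 0.236, edgeR; 0.0073 with DESeq2), and the call changed with the processing. It passed with a stricter gate (3.43, adjusted p = 0.00061, edgeR), and also without 1 cell. That cell, in the contralateral Prdx1-/- library at 48 h, held 108 of the 114 Timp1 UMIs there. Without it the library had 0.219 CPM and Timp1 passed (3.27, adjusted p = 0.0021, edgeR), a setting chosen after seeing the data. It also passed without the ipsilateral Prdx1-/- library at 48 h (3.06, adjusted p = 0.00997, edgeR). The shares of all genes called with the stricter gate, without the cell and without that library are not given here. The cell had 54238 UMIs and marker scores of 0.491 for microglia and 0.283 for fibroblasts. Thinned shares of microglia with a Timp1 UMI were at most 0.200%, near the level of 1 UMI.

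**Figure D2:**
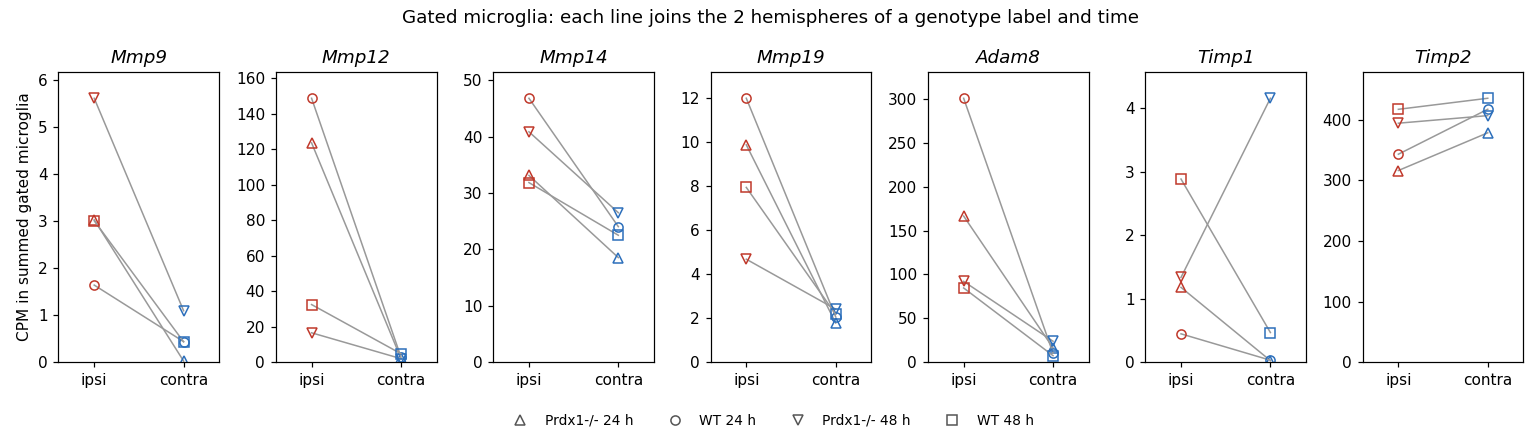
CPM of each gene in summed gated microglia, ipsilateral (left) and contralateral (right), with a line joining the hemispheres of the same genotype label and time. Lines fall to the right for the 4 metalloproteinases and Adam8 in all 4 pairs, run nearly level for Timp2, and rise for Timp1 in the Prdx1-/- pair at 48 h.

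Other markers moved with these genes. Of the microglial markers, 10 of 11 were lower ipsilaterally, and the gate takes its cells by these markers. Monocyte and macrophage markers in microglia summed to 773 to 1392 CPM ipsilaterally and 547 to 983 CPM contralaterally, and their part in the results was not tested. In a fit without the contralateral Prdx1-/- library at 24 h, 3 of the 7 genes passed (adjusted p = 0.0508 for Mmp12 and 0.0541 for Adam8), and without the contralateral WT library at 24 h Adam8 missed (adjusted p = 0.0518). The shares of all genes called in these fits are not given here.

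Mmp12 was concentrated in few microglia. A UMI was found in 577 of 5832 ipsilateral microglia, with a median of 4 and a maximum of 264 UMIs in these cells, and the top 1% of cells held 55.9% of the UMIs. Adam8 was spread more widely, over 2072 cells, with 12.9% of its UMIs in the top 1%. Ipsilateral microglia with an Mmp12 UMI had 555 and 280 CPM of Adam8 at 48 h (Prdx1-/- and WT) and 504 and 611 CPM at 24 h, against 66.0 and 67.6 CPM and 130.2 and 251 CPM in microglia of the same libraries without one. Timp2 was 353 to 475 CPM with and 312 to 414 CPM without an Mmp12 UMI. Cells with an Mmp12 UMI were deeper, with medians of 12827.5 to 17320 UMIs against 10689 to 12160 UMIs.

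Most of these transcripts lay in graph cluster 8, which is described without a test because it was picked as the cluster with the most Mmp12. The members and Prdx1 were left out of the genes used for clustering. Among genes ranked afterwards by their level in cluster 8 over all other cells, Mmp12 came first, before Lpl, Spp1, Mt2 and Srxn1. Of its 1750 cells 96.5% were ipsilateral and 68.6% passed a gate, and its summed cells had 594 CPM of Mmp12, 710 CPM of Adam8, 31.1 CPM of Mmp19 and 57.8 CPM of Mmp14. Its best marker list was that of microglia, with a score of 0.218, and none of its 10 leading genes was a microglial marker. In ipsilateral microglia it held 109 of 124 and 252 of 270 Mmp12 UMIs at 48 h (Prdx1-/- and WT) and 2924 of 3142 and 4741 of 4987 at 24 h. Its part of Adam8 was smaller, with 377 of 690 and 574 of 704 UMIs at 48 h and 2442 of 4239 and 8718 of 10099 at 24 h. With its cells left out, Mmp12 was 2.20 and 2.60 CPM in ipsilateral microglia at 48 h (Prdx1-/- and WT) and 10.0 and 10.6 CPM at 24 h, against 1.36 and 4.55 CPM and 1.11 and 2.54 CPM contralaterally, so that the ipsilateral library was the higher one in 3 of 4 pairs. Adam8 without these cells had 45.8 and 18.8 CPM at 48 h and 82.8 and 59.4 CPM at 24 h ipsilaterally, against 20.7 and 6.02 CPM and 13.8 and 7.77 CPM contralaterally, higher in 4 of 4 pairs. No test of these levels is given, because the cluster left out was chosen as the one with the most Mmp12.

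Other clusters divided the genes further, again as a description. Neutrophil-like clusters 5, 9, 11 and 17 all had Mmp9, itself a leading gene of cluster 5, at 1400 to 1604 CPM, whereas Mmp19 was 132.1, 196.6, 37.3 and 1.72 CPM in the same clusters, lowest where the granule genes Ltf, Ngp and Camp of immature neutrophils lead. Timp1 was highest in the monocyte/macrophage-like cluster 3 (129 CPM), led by Vcan and Arg1, and in the unnamed cluster 10 (125 CPM), led by MHC class II genes. Mmp14 was highest in the unnamed cluster 7 (135.2 CPM), led by Fabp5 and Gpnmb. Timp2 was highest in microglia-like cluster 4 (506 CPM).

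**Figure D3:**
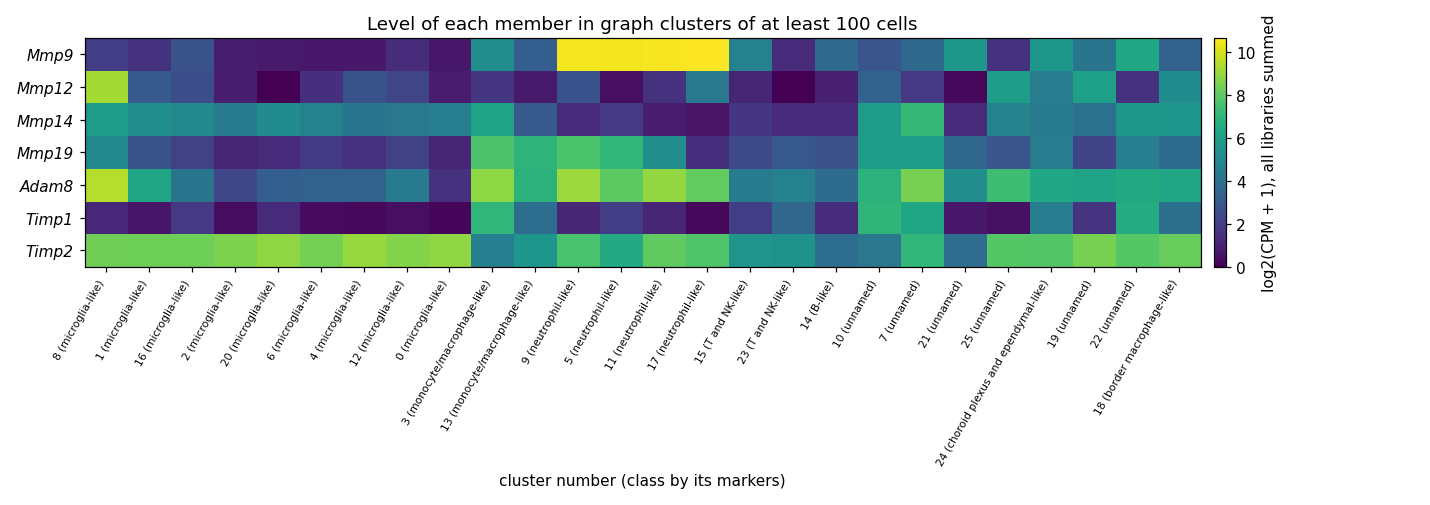
Level of each gene, as log2(CPM + 1) of summed cells, in each graph cluster of at least 100 cells, labelled with its number and the class its markers give. Mmp9 is bright in the 4 neutrophil-like clusters, Mmp12 in cluster 8, and Timp2 is bright across the microglia-like clusters.

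In monocytes and macrophages, 0 of the 7 genes passed between hemispheres in the edgeR test, where 0.227% of 11006 genes did. Unadjusted p was under 0.05 for 4 of them and for 1603 of all genes, and DESeq2 called 4, where it called 2.43% of genes. Mmp19 averaged 157 ± 45.4 CPM in ipsilateral and 64.0 ± 13.4 CPM in contralateral libraries (SD, n = 4), Adam8 335 ± 29.4 and 178 ± 74.6 CPM, Timp1 112 ± 21.1 and 63.2 ± 23.8 CPM, and Mmp9 20.5 ± 7.11 and 9.02 ± 4.23 CPM. Each of these 4 was higher ipsilaterally in 4 of 4 pairs, with log2 fold changes of 1.30 (SE 0.29, adjusted p = 0.133) for Mmp19, 1.05 (SE 0.26, adjusted p = 0.155) for Adam8, 0.89 (SE 0.30, adjusted p = 0.255) for Timp1 and 1.33 (SE 0.24, adjusted p = 0.0677) for Mmp9. The contralateral sums came from 99 to 448 cells per library and the ipsilateral ones from 674 to 2356 cells. Neutrophil markers summed to 517 to 5052 CPM in ipsilateral and 902 to 8319 CPM in contralateral monocytes and macrophages, and their part in the Mmp9 level was not tested. Without the ipsilateral Prdx1-/- library at 48 h, Mmp9 (1.01, adjusted p = 0.0337) and Adam8 (1.28, adjusted p = 0.0486) passed in edgeR. The share of all genes called without that library is not given here.

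In neutrophils the hemisphere fit called 0 of the 5 genes that passed the filter on low counts, and 0% of 8645 genes, with 1112 genes at an unadjusted p under 0.05 and 1.21% called by DESeq2. Of the 5, 1 had an unadjusted p under 0.05 and DESeq2 called 1, both times Mmp19. Mmp9 had 1381 ± 229 CPM in ipsilateral and 1551 ± 363 CPM in contralateral neutrophils (SD, n = 4). Mmp19 had 47.9 and 84.1 CPM in ipsilateral neutrophils at 48 h (Prdx1-/- and WT) and 192 and 141 CPM at 24 h, against 19.0 and 10.8 CPM and 154 and 36.5 CPM contralaterally. The ipsilateral library was higher in every pair although the groups overlapped, and the log2 fold change was 1.69 (SE 0.39, adjusted p = 0.158, edgeR). It was past the threshold with DESeq2 (adjusted p = 0.0046), with a stricter gate (1.20, adjusted p = 0.0028) and without the ipsilateral Prdx1-/- library at 48 h (1.89, adjusted p = 0.0078). The shares of all genes called with the stricter gate and without that library are not given here. Contralateral neutrophils numbered 43 to 300 per library. In T and NK cells, 0 of the 2 genes tested passed in edgeR or DESeq2, and 0 had an unadjusted p under 0.05, where 1.38% of 7342 genes passed in edgeR and 0.399% in DESeq2.

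**Figure D4:**
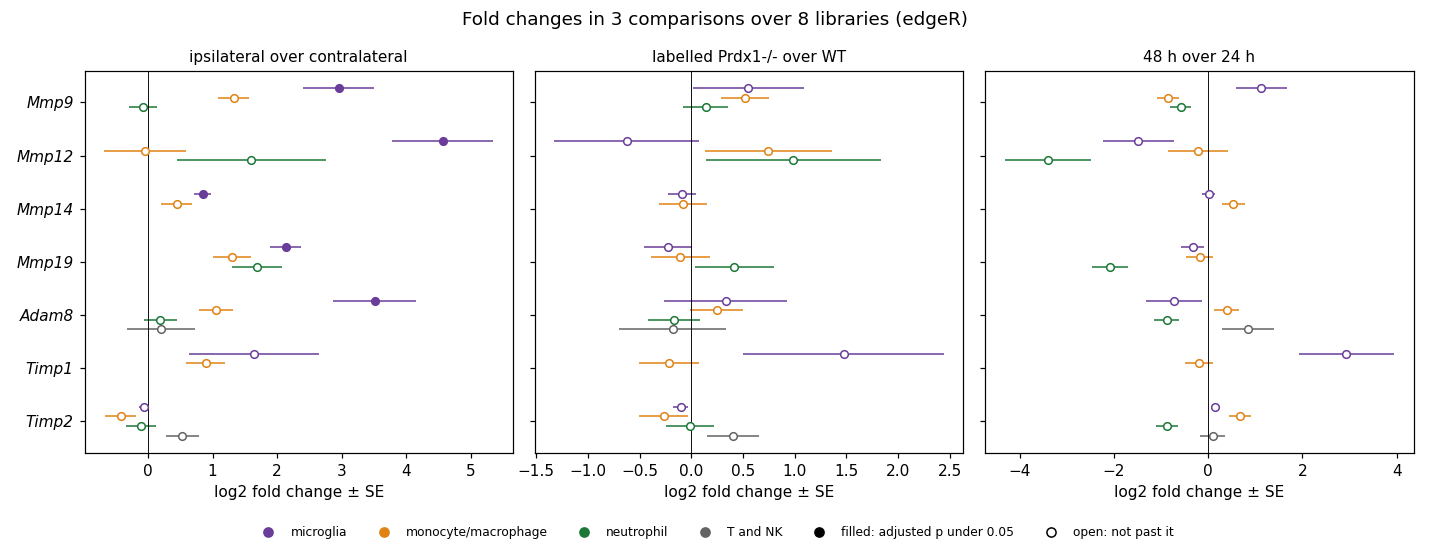
Log2 fold change ± SE of each gene in edgeR fits over all 8 libraries for ipsilateral over contralateral, labelled Prdx1-/- over WT, and 48 h over 24 h, in 4 classes (colours). Filled points have an adjusted p under 0.05; 5 microglial points in the hemisphere panel are filled and all points of the genotype and time panels are open.

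At 48 h against 24 h, 0 of the 7 genes passed in microglia in edgeR, where 13% of genes did. Of the 7, 1 had an unadjusted p under 0.05, as had 3927 of 13470 genes, and DESeq2 called 1 of the 7 and 9.22% of genes. Timp1 was the gene both times. Mmp12 in ipsilateral microglia was 16.6 and 32.5 CPM at 48 h, against 123 and 149 CPM at 24 h (Prdx1-/- and WT), and in contralateral microglia 2.01 and 4.78 CPM at 48 h, against 2.16 and 2.97 CPM at 24 h. Fitted on the 4 ipsilateral libraries alone, which leaves 1 residual degree of freedom, 12.6% of genes passed and 3 members were lower at 48 h: Mmp12 (log2 fold change -2.55, adjusted p = 0.0061), Adam8 (-1.39, adjusted p = 0.0498) and Mmp19 (-0.84, adjusted p = 0.0304). The difference of the hemisphere effect between the times, tested over all 8 libraries, did not pass for Mmp12 (-2.95, SE 0.45, adjusted p = 0.117) or Mmp19 (-1.08, SE 0.32, adjusted p = 0.193). That interaction called 0 of the 7 genes and 0.0594% of all genes, with 2 of the 7 and 1898 genes at an unadjusted p under 0.05. In monocytes and macrophages it called 0% of genes, with 3 of the 7 and 1130 of 11006 genes at an unadjusted p under 0.05: Mmp19 (-1.39, SE 0.22, adjusted p = 0.273), Adam8 (-1.27, SE 0.20, adjusted p = 0.273) and Mmp14 (-1.05, SE 0.29, adjusted p = 0.368). In neutrophils it called 0% of genes, with Adam8 (-1.05, SE 0.37, adjusted p = 0.877) and Mmp12 among the 440 genes at an unadjusted p under 0.05. In T and NK cells it called 0.0136% of genes, and neither gene tested had an unadjusted p under 0.05. DESeq2 was not run for this interaction.

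In neutrophils all 5 genes tested were lower at 48 h by the fitted value, with unadjusted p under 0.05 for each and for 917 of 8645 genes. None passed the adjustment in edgeR, which called 0.0347% of genes, and DESeq2 called 3 of the 5 and 0.574% of genes. Mmp19, by the levels given above, was at -2.09 on the log2 scale (SE 0.38, adjusted p = 0.173), and was lower at 48 h in 4 of 4 pairs. Timp2 was 138 and 116 CPM in ipsilateral neutrophils at 48 h, against 219 and 212 CPM at 24 h (Prdx1-/- and WT), and 153 and 181.5 CPM in contralateral ones at 48 h, against 237 and 192 CPM at 24 h, likewise lower in 4 of 4 pairs (-0.87, SE 0.23, adjusted p = 0.354). Adam8 (-0.88, SE 0.26, adjusted p = 0.366) and Mmp9 (-0.59, SE 0.22, adjusted p = 0.42) were lower in 3 of 4 pairs. Mmp12, at a mean of 1.53 CPM, was higher at 48 h in 2 of 4 pairs although its fitted value was -3.41 (SE 0.92, adjusted p = 0.354). Without the contralateral WT library at 24 h, Mmp19, Adam8, Timp2 and Mmp12 passed in edgeR, with adjusted p from 0.0199 to 0.0344. The share of all genes called in that fit is not given here, so these calls cannot be set against it. In ipsilateral neutrophils the UMIs of Mmp19 lay mainly in cluster 5 at 48 h (491 of 594 in Prdx1-/-, 384 of 389 in WT) and in cluster 9 at 24 h (1080 of 1269 in Prdx1-/-, 643 of 815 in WT). In monocytes and macrophages 0 of the 7 passed in edgeR, where 0.0273% of genes did, 2 had an unadjusted p under 0.05, as had 1498 of 11006 genes, and DESeq2 called 1 of the 7 and 2.38% of genes. The T and NK fit called 0 of 2 with either tool, 0 with an unadjusted p under 0.05, and 0.0953% of genes in edgeR and 0.0344% in DESeq2.

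For the comparison of genotype labels, Prdx1 itself was read first, in microglia. It had 6.41 and 5.94 CPM in the ipsilateral and contralateral libraries labelled Prdx1-/- at 48 h, and 450 and 88.7 CPM in those labelled Prdx1-/- at 24 h, against 562 and 335 CPM in WT at 48 h and 471 and 262 CPM in WT at 24 h. The 48 h libraries matched their labels, whereas those labelled Prdx1-/- at 24 h held Prdx1 transcripts, so every direction here is between libraries as labelled.

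None of the 7 genes passed between the libraries labelled Prdx1-/- and WT in any class in the edgeR or DESeq2 fits over 8 libraries, and none had an unadjusted p under 0.05 in edgeR. Prdx1 itself was not called by these edgeR fits either, with a log2 fold change of -3.10 in microglia (SE 1.67, adjusted p = 0.583). Because they miss the gene named in the labels, they cannot decide whether loss of Prdx1 changes the 7 genes. The fits called 0% of genes in microglia (1565 of 13470 at an unadjusted p under 0.05, 0.742% called by DESeq2), 0% in monocytes and macrophages (169 genes and 0.0222%), 0% in neutrophils (103 genes and 0.0183%) and 0.0136% in T and NK cells (334 genes and 0.00688%). In microglia the fitted differences were -0.62 (SE 0.70) for Mmp12, 0.33 (SE 0.60) for Adam8 and 1.47 (SE 0.97) for Timp1, with adjusted p of 0.799, 0.891 and 0.634. The interaction of genotype label and hemisphere in microglia called 0% of genes and 0 of the 7, with 210 genes and 0 members at an unadjusted p under 0.05, and was not run in DESeq2. It also called 0% of genes in the other 3 classes, where 1 member each had an unadjusted p under 0.05: Timp2 in monocytes and macrophages (-0.92, SE 0.34, adjusted p = 0.912), Mmp19 in neutrophils (-1.52, SE 0.59, adjusted p = 0.705) and Adam8 in T and NK cells (-2.44, SE 0.95, adjusted p = 0.99996). There 576 of 11006, 582 of 8645 and 284 of 7342 genes had an unadjusted p under 0.05.

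The 4 libraries of 48 h, where Prdx1 matched the labels, were also fitted alone, with 1 residual degree of freedom. There 8.48% of genes passed in microglia. Mmp12 was lower in Prdx1-/- (log2 fold change -1.13, adjusted p = 3.7e-08), at 16.6 CPM ipsilaterally and 2.01 CPM contralaterally, against 32.5 and 4.78 CPM in WT. Adam8 was higher (0.77, adjusted p = 5.2e-12), at 92.2 and 23.9 CPM, against 84.6 and 7.45 CPM in WT. The ipsilateral levels of Adam8 were close, so this difference lay mainly in the contralateral pair. With pairs this unlike and 1 residual degree of freedom, so small a p-value cannot be taken as a sure difference between the labels. The microglia compared lay in different clusters: cluster 12 held 27.5% of contralateral Prdx1-/- and 0.163% of contralateral WT microglia, and cluster 1 held 49.1% of ipsilateral Prdx1-/- and 24.2% of ipsilateral WT microglia. The part of this in the differences was not tested. Timp1 was higher (1.41, adjusted p = 0.0027), with the 1 cell described above in the contralateral Prdx1-/- library. With 1 library for each hemisphere and label, the genotype and the library cannot be told apart.

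Other genes of the system, from lists of related function, were read in the same microglial hemisphere fit, where a list's share is to be set against the 44.7% of all genes. The lists were also chosen with earlier results of these data known, so each share is a description. Of factors that induce MMP genes, 10 of 19 were higher and 2 lower ipsilaterally, with a list median of 0.37 against -0.01 for all genes. Among those with a mean of at least 20 CPM in microglia, the largest rises were in Ets2 (log2 fold change 1.58), Tnf (1.53) and Fosl2 (1.42), an ETS factor, a cytokine and an AP-1 subunit, and Ets1 (-0.54) and Tgfb1 (-0.23) fell. The AP-1 subunit gene Fosl1 had the largest fold change of the list (5.37) at a mean of 1.92 CPM. Of genes for activation and docking, 5 of 13 were higher and 1 lower, with the largest rises in Cd44 (2.83), the hyaluronan receptor that can hold MMP9 at the cell surface, Sdc4 (2.26) and the motor gene Kif5b (0.56). Of matrix and junction genes, 2 of 14 were higher and 3 lower: Spp1 (3.99), which encodes the MMP substrate osteopontin, and Fn1 (2.34), fibronectin, which is also on the monocyte marker list, rose, and Tjp1 (-0.39) fell.

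The remaining lists held other proteases and their inhibitors. Other ADAM and ADAMTS genes gave 3 of 11 higher and 2 lower, with Adam9 at 0.48, Adam15 at 0.30 and the alpha-secretase gene Adam10 at -0.28. The plasminogen cascade gave 1 of 7 higher, the urokinase receptor gene Plaur (1.23), and 2 lower, among them the protease inhibitor gene Serpine2 (-0.83). Other MMPs gave 2 of 7 higher and 2 lower and other inhibitors 0 of 4 higher and 1 lower, with every called gene under 20 CPM. In monocytes and macrophages the hemisphere fit called 2 of the 19 inducing factors, both higher, and the one named by level was Tnf (1.20, adjusted p = 0.0249). T and NK cells had Il1b (2.72), Spp1 (2.07), Plaur (1.80) and Ets2 (1.50) higher ipsilaterally, beside neutrophil markers of 325 to 1189 CPM in ipsilateral and 56.6 to 236 CPM in contralateral sums, whose part was not tested.

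The genes whose levels ran most like each member were sought over 39 class sums of the 8 libraries among 7718 genes, as a description, since the sums share libraries and cell classes. Mmp9 ran with Cxcr2 (Pearson r = 0.953), AC110211.1 (0.951) and S100a9 (0.947). Mmp19 ran with Emilin2 (0.947), Pla2g7 (0.937) and Klra2 (0.931), and Adam8 with Pkm (0.940), Slc7a11 (0.928) and Ptgs2 (0.928). Timp1 ran with Plcb1 (0.962), Fabp7 (0.958) and Pitpna (0.958), and Timp2 with Clip1 (0.915), Pld1 (0.892) and Cd84 (0.890). Mmp14 ran with Psap (0.938), Fcgr1 (0.937) and Parvb (0.925). Mmp12 had the loosest matches, Mt2 (0.809), Sqstm1 (0.806) and Rcan1 (0.804). Among the members themselves Mmp19 and Adam8 were closest (0.871), followed by Mmp14 and Timp1 (0.726), and Timp1 and Timp2 had r = -0.049.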

How the data were processed

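Single-cell RNA-seq of 8 libraries was analysed from the UMI counts per gene and cell that the authors deposited. Per the submitters' processing notes, Cell Ranger, Seurat and mm10 were used, and the labels' protocols name a 10x 3' kit. Deposited cells had at least 501 UMIs and at most 19.9% mitochondrial counts. Cells with over 10% mitochondrial counts or under 200 genes were left out (337), as were simulated-neighbour doublets (1583, 4.00%, set at 0.8% per 1000 cells). Each cell was assigned to 1 of 15 classes from 152 marker genes (a score of at least 0.1, at least 3 markers and 1.5 times the next class). Counts were summed per library and class with at least 20 cells, and CPM scales each sum to the same total. Sums were tested with edgeR 4.0.16 in R 4.3.3 (quasi-likelihood, TMM, its filter on low counts) with hemisphere, genotype label and time as terms, and Benjamini-Hochberg adjustment over all genes tested, called at 0.05. Classes were compared with the library as a block, after TMM scaling of the sums. Clusters came from 2000 variable genes (members and Prdx1 left out), 30 principal components, 15 neighbours and Leiden resolution 1.0 (leidenalg 0.10.2). DESeq2 1.42.0, other scalings, filters and gates, and each library left out were alternatives. The fitting script was tested on simulated data. The members, lists and markers were chosen with earlier results of these data known. Of each list, up to 3 called genes in each direction with the largest fold change and at least 20 CPM are named, with the 3 genes most like each member. Each combination has 1 library, so libraries of the other factor levels stand in for replicates. Intervals and floors (3 counts) cover counting error only. Library totals were 39433266 to 70111421 UMIs.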

Additional observations from a re-analysis of the deposited data

Results flagged for a closer look

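In groups of 4 libraries, 10 of 126 levels (7.94%) had 1 library far from the others. The rule's rate of about 1 in 20 holds for values drawn alike. Each group here mixes the other factors, and the groups share libraries, so the percentage cannot be set against that rate. In microglia, Mmp12 was 123 CPM in the ipsilateral Prdx1-/- library at 24 h, against 2.01 to 16.6 CPM in the other Prdx1-/- libraries. Timp1 in microglia was 4.16 CPM in the contralateral Prdx1-/- library at 48 h, against 0.0251 to 0.468 CPM in the other contralateral ones, from the 1 cell described above. It was 2.88 CPM in the ipsilateral WT library at 48 h, against 0.0312 to 0.468 CPM in the other WT ones. In monocytes and macrophages, Mmp9 was 9.95 CPM in the ipsilateral WT library at 48 h, below the 23.0 to 25.5 CPM of the other ipsilateral ones. Mmp12 there was 0 CPM, with 0 UMIs, in the contralateral WT library at 24 h, against 4.44 to 4.71 CPM in the other contralateral ones. Timp2 was 34.8 CPM in the ipsilateral Prdx1-/- library at 48 h, against 63.0 to 66.3 CPM in the other 48 h ones. In neutrophils, Mmp12 was 6.96 CPM in the ipsilateral Prdx1-/- library at 24 h, against 0 to 0.500 CPM in the other Prdx1-/- ones, and 37 of its 46 UMIs lay in 1 cell. Adam8 in neutrophils was 541 CPM in the ipsilateral WT library at 24 h, against 306 to 331 CPM in the other WT ones. In T and NK cells, Adam8 was 21.2 CPM, from 14 UMIs, in the contralateral Prdx1-/- library at 48 h, against 6.61 to 8.09 CPM, and Timp2 was 32.8 CPM, from 30 UMIs, in the contralateral WT library at 48 h, against 40.8 to 42.3 CPM.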

How the results depend on the processing

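Of 77 fold changes called in at least 1 setting, 554 alternatives gave 481 with the same direction and side of the threshold, 10 that lost the call, 51 that gained one and 12 with another sign; 56 fold changes were never called. The cause of each change was not tested. Members called between hemispheres in microglia numbered 5, with 3 to 6 when 1 library was left out. Numbers called elsewhere were 0 and became, with 1 library left out, 0 to 1 for time in microglia, 0 to 2 for hemisphere and 0 to 1 for time in monocytes and macrophages, and 0 to 1 for hemisphere and 0 to 4 for time in neutrophils. In microglia the genotype count was 3 at 48 h alone, and the time count 1 with DESeq2, 1 with graph clusters and 3 ipsilaterally alone. In monocytes and macrophages the hemisphere count was 4 with DESeq2, 1 with no filter, 1 with all deposited cells and 3 with graph clusters, and the time count 1 with DESeq2 and 1 ipsilaterally alone. In neutrophils the hemisphere count was 1 with DESeq2, no filter, graph clusters or a stricter gate, and the time count 3, 2, 1 and 3 in that order. Shares of all genes called are given above for DESeq2 and, in microglia, for the 48 h and the ipsilateral libraries alone. For the other settings they are not given here, so those counts of members cannot be set against all genes. Signs changed for Timp2 between hemispheres in microglia (0.0145 at 48 h alone), Adam8 by genotype in microglia (-0.11 at 24 h alone, -0.36 ipsilaterally alone, -0.13 to 0.91 with 1 library left out), Timp1 by genotype in microglia (-0.085 without the 1 cell), Mmp19 by time in microglia (0.21 without cluster 8), Mmp9 and Mmp19 by time in monocytes and macrophages (0.16 and 0.039 with graph clusters, and -0.46 to 0.057 for Mmp19 with 1 library left out), and Timp1 in microglia over T and NK cells (-2.81 with graph clusters, -0.23 ipsilaterally alone). The labels give no replicate numbers. Pairing the hemispheres of each genotype label and time as a block gave 5 microglial members called and 0 in each other class, and 25 genes called in neutrophils, against 0 without it.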
